A study of Homo sapiens with 6 samples.

Results

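The genes described here are 10 genes of the actin cytoskeleton and its transcriptional control: the cytoplasmic actins ACTB and ACTG1, the transcription factor SRF, the calponin-family actin binders TAGLN and TAGLN2, the tropomyosins TPM1 and TPM2, the myosin light chain MYL9, vinculin (VCL) and filamin A (FLNA). They were taken by symbol from a published table of reads per gene, and all 10 were found among its 27470 gene symbols. RNA came from 22Rv1-ABHD5 cells. 22Rv1 is a line of human prostate cancer that grows without androgen, and these cells hold a lentiviral construct from which Dox (doxycycline) switches on ABHD5, the coactivator of the triglyceride lipase ATGL. Cells were grown for 48 h without Dox (group Control, 3 libraries) or with Dox (group OE, for overexpressing ABHD5, 3 libraries). Both groups carry the vector and its drug selection, and the sources used here do not say whether the cells were a single clone. No libraries of the parent line with Dox were analysed here, so Dox and ABHD5 cannot be told apart in these data. The paper reports, with data not shown, a negligible influence of Dox on how the parent lines grew. Its effect on their transcripts is not given. The labels do not say whether libraries of a group came from separate cultures, so p-values measure only the spread between these libraries.

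Actin monomers assemble into filaments that give a cell its shape and carry tension. Tropomyosins lie along the filament, calponin-family proteins bind and bundle it, filamins cross-link it, myosin II pulls on it with the help of its regulatory light chains, and vinculin ties it to adhesion sites. SRF is a transcription factor that binds a short DNA motif, the CArG box. Its cofactors of the MRTF family are held by free actin monomers, so that the state of actin feeds back on the transcription of actin and of many actin-binding proteins, and SRF itself is among its own targets. A separate set of cofactors, the ternary complex factors, link SRF to the immediate early genes.

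Promoter windows from 250 bases before to 50 bases after the transcription start were taken from RefSeq (GRCh38.p14) and matched 7 of the 10 members; ACTB, TAGLN and MYL9 were not matched. These 7 members have 11 windows, of which 3, each of a different member, hold the exact CArG box, against 1.29% of all 35116 RefSeq windows of the same length. With 1 mismatch allowed it was the same number of member windows, against 18.9% of all windows. The members were chosen as genes of actin and of its control by SRF, so their share of boxes is not an independent result. The consensus has the same form on both strands, so a match covers both. The 120 bases before the start are shown for those 3 members because they carry the motif of the factor named here and because their transcripts moved in different directions; capitals mark the CArG boxes.
ACTG1 (chr17:81512800-81512919, minus strand): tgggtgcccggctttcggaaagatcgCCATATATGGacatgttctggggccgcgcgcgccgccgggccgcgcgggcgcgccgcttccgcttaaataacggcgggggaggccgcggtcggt
SRF (chr6:43171149-43171268, plus strand): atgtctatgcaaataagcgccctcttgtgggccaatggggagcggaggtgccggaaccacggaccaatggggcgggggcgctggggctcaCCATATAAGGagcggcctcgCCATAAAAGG
FLNA (chrX:154374635-154374754, minus strand): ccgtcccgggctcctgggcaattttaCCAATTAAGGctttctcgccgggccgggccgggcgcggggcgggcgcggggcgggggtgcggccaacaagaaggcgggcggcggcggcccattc
SRF had 2 boxes, at 30 to 21 and 10 to 1 bases before its first start, and none in the window of its second start. In both ACTG1 and FLNA the box lay 94 to 85 bases before the start. The windows of TAGLN2 (3 starts), TPM1, TPM2 (2 starts) and VCL do not hold these letters. A match is a description of the sequence and not a measured binding site.

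**Figure D1:**
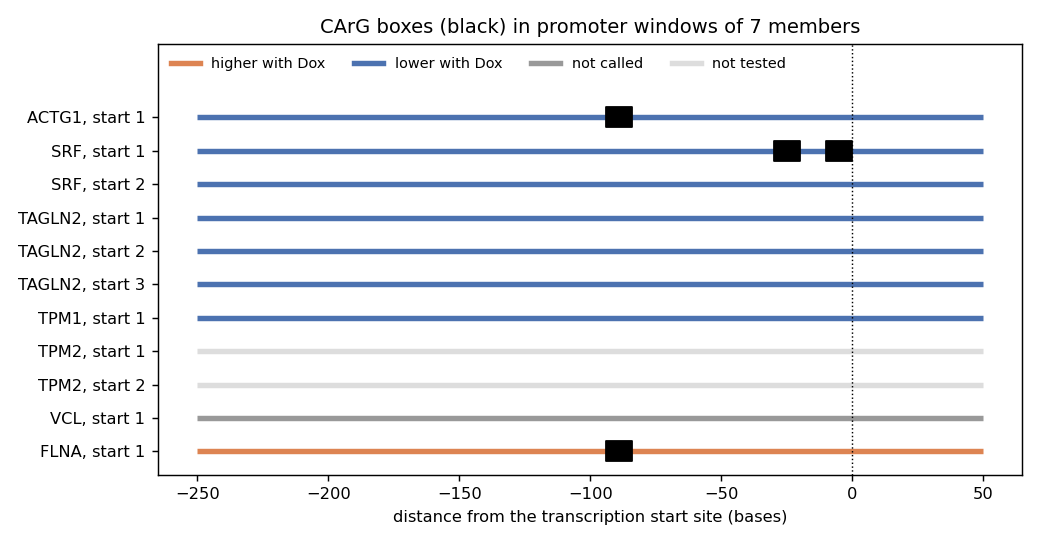
Promoter windows of the 7 members with a RefSeq window, drawn by distance in bases from the transcription start (dotted line), with CArG boxes in black and line colour showing the direction of change with Dox. Boxes are seen in ACTG1 and SRF, which were lower with Dox, and in FLNA, which was higher.

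The libraries were made with a kit that primes at the poly(A) tail, so a read marks the 3ʹ end of a transcript. Libraries held 3394672 to 5988151 counts on genes without Dox and 3460471 to 7271771 with Dox. Reads on no gene were 32.5% to 34.6% of those listed without Dox and 35.6% to 39.5% with Dox; their part in the results below was not tested. ABHD5 itself, the induced gene, had 63.5, 58.0 and 62.8 CPM (counts divided by the library's total and brought to a common scale by edgeR's TMM method) in replicates 1, 2 and 3 without Dox and 125.9, 130.8 and 91.7 with Dox (log2 fold change 0.91, SE 0.15). Whether 3ʹ reads from the construct were counted under ABHD5 is not given in the sources used here, so this value may not measure the full induction. Among luminal prostate markers, 8 of 8 were tested and their summed level was 1802 to 1888 CPM without Dox and 1195 to 1312 with Dox. Of 12 stromal and smooth muscle markers 9 were too low to test and 3 were at 0 in every library. Their summed level was 5.58 to 11.9 CPM without Dox and 15.3 to 21.5 with Dox. Of this sum, CNN1 had a mean of 0.66 CPM without Dox and 8.49 with Dox, COL1A1 2.43 and 5.49, and LUM, which did not pass, 3.81 and 2.35. The part of these markers in the results was not tested.

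With Dox, transcripts of SRF and of ACTG1, TAGLN2 and TPM1 fell while those of MYL9 and FLNA rose. Of the 9 members that could be tested, 4 were lower and 2 higher with Dox by the quasi-likelihood test of edgeR with an adjusted p under 0.05 over 12233 genes, while 25.5% of all tested genes passed in either direction, 13.7% as lower and 11.9% as higher. Among tested genes with a mean of at least 100 CPM over the conditions, 34.2% passed, 8.66% as higher and 25.5% as lower. Under scaling by library totals alone, 65.7% of all calls were higher, against 46.4% here, and the members kept their directions. The members' median log2 fold change was -0.42, against 0.02 over all tested genes. The same 6 members had no overlap between the libraries of the conditions, a pattern shared by 39.5% of all tested genes. None of the 9 tested members changed by as much as 2-fold, which 7.55% of tested genes did with an adjusted p under 0.05. TPM2 did not pass the filter on low counts. In bulk RNA, fewer cells in a given state and less RNA per cell cannot be told apart.

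**Figure D2:**
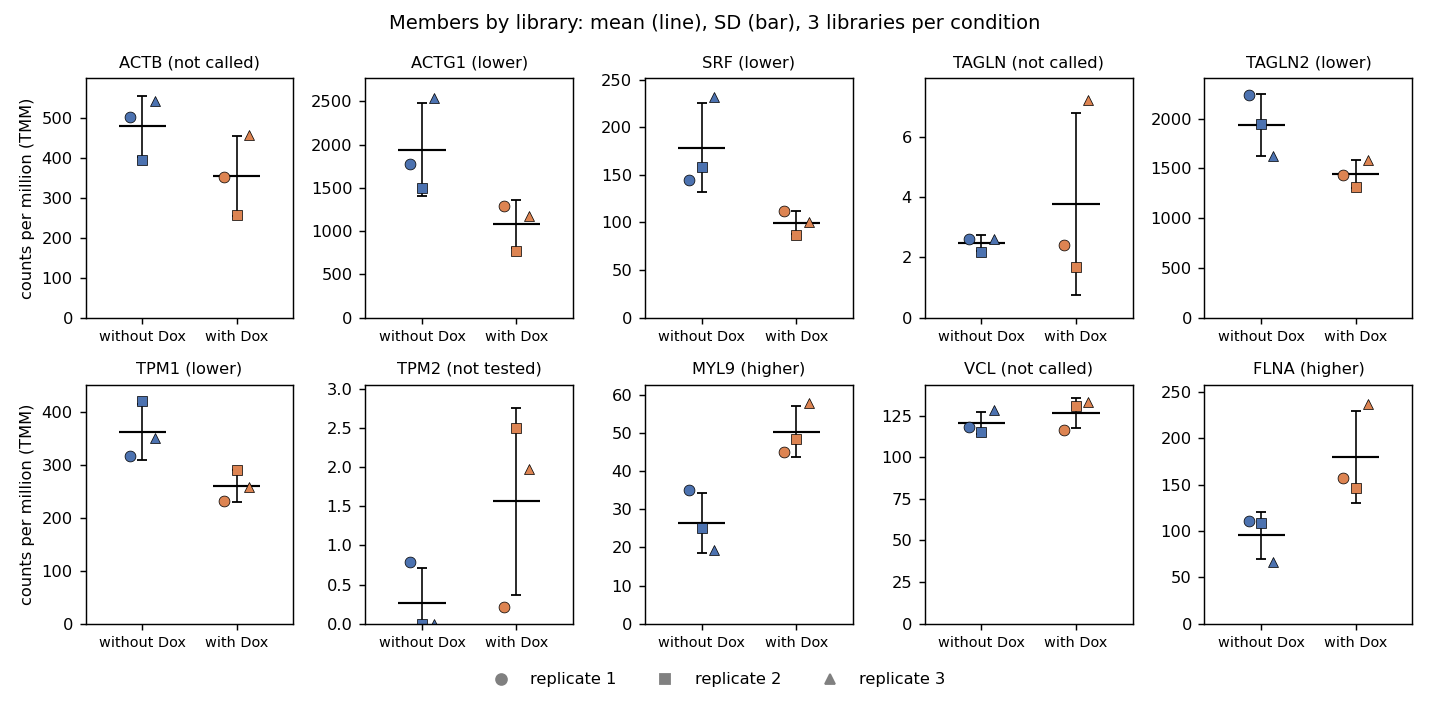
CPM (TMM) of each of the 10 members in the 6 libraries, with the replicate number as the marker, the mean as a line and the SD as a bar (n = 3 per condition); each panel has its own axis from 0. The libraries of the conditions separate for ACTG1, SRF, TAGLN2, TPM1, MYL9 and FLNA, and overlap for ACTB, TAGLN, TPM2 and VCL.

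The cytoplasmic actins form most of the filaments of non-muscle cells and differ in only a few residues of the protein. ACTG1 (chromosome 17, 81509413 to 81523847, minus strand, coordinates of GENCODE 44 on hg38) had 1781, 1501 and 2545 CPM in replicates 1, 2 and 3 without Dox and 1290, 765 and 1180 CPM with Dox. Every library with Dox lay under every library without it. The mean was 1943 ± 541 CPM without Dox and 1078 ± 277 with Dox (SD, n = 3 each), and the log2 fold change was -0.85 ± 0.20 (SE, adjusted p = 0.00388 by edgeR). ACTB (chromosome 7, 5526409 to 5563902, minus strand), widely used as a loading reference, had 501, 394 and 541 CPM without Dox and 353, 256 and 455 with Dox. Its replicate 3 with Dox was above replicate 2 without Dox, so the conditions overlapped. The log2 fold change was -0.43 (SE 0.17, 95% interval -0.80 to -0.062) and did not pass the threshold (adjusted p = 0.0812 by edgeR). Leaving out replicate 2 without Dox gave -0.56 (adjusted p = 0.0362, same edgeR test) and leaving out replicate 3 with Dox gave -0.65 (adjusted p = 0.00522, same edgeR test), so whether it passed depended on single libraries. Without replicate 2 with Dox it was -0.25.

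The summed level of ACTB and ACTG1 was 2282, 1895 and 3086 CPM in replicates 1, 2 and 3 without Dox and 1643, 1021 and 1636 CPM with Dox. This gave 2421 ± 608 CPM without Dox and 1433 ± 357 with Dox (SD, n = 3 each). A ratio within a library does not depend on how libraries are scaled to each other. The log2 ratio of ACTB to ACTG1 counts was -1.83, -1.93 and -2.24 without Dox and -1.87, -1.58 and -1.37 with Dox. The difference of the means was 0.39, and an exact two-sided permutation test gave p = 0.2 (adjusted p = 0.2 over 3 pairs), where 3 libraries against 3 allow no p under 0.1. Replicate 1 with Dox fell within the range without Dox. A difference between the responses of these actins was not shown.

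**Figure D3:**
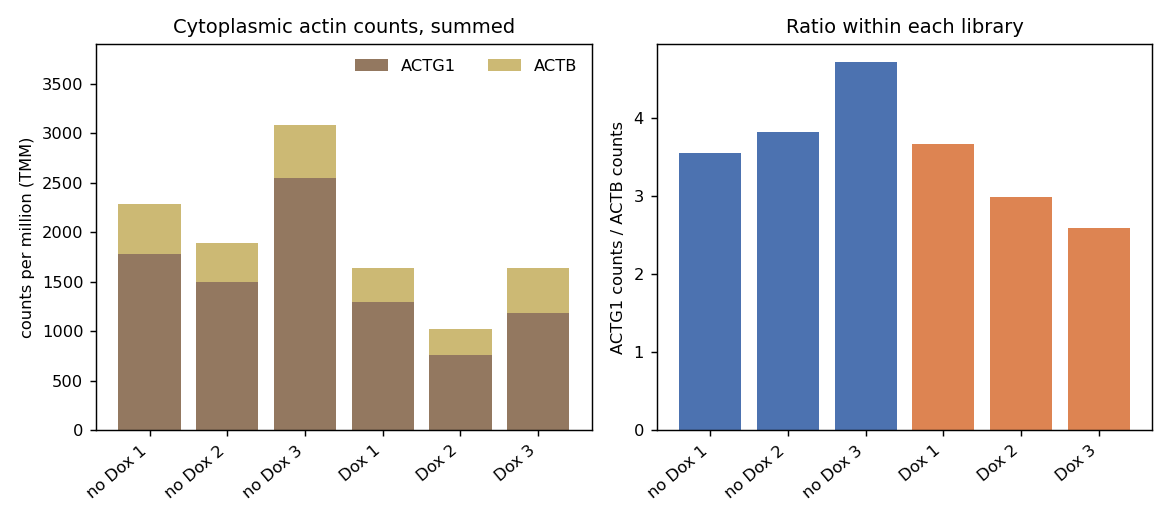
Left, CPM (TMM) of ACTG1 and ACTB stacked for each of the 6 libraries; right, ACTG1 counts divided by ACTB counts in the same library. The summed level is lower in each of the 3 libraries with Dox than in any without, and the ratio runs from 3.55 to 4.71 without Dox and from 2.59 to 3.66 with Dox, so that the ranges overlap.

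Actin has many processed copies in the genome, and reads that fit several copies could be split or dropped. The table lists 0 reads as aligned to more than 1 place, so the treatment of such reads cannot be read from it. Among the copies listed, ACTG1P20 had 19.4 ± 0.82 CPM without Dox and 14.5 ± 2.35 with Dox (SD, n = 3 each), with a log2 fold change of -0.39 that did not pass the threshold (adjusted p = 0.158 by edgeR). POTEF, which carries an actin-like part, had -0.40 and TPM3P9, a tropomyosin pseudogene, had -0.30, and neither passed (adjusted p = 0.413 and 0.300 by edgeR). Other listed actin copies were too low to test. The muscle actins were at or near the limit of detection. ACTC1 and ACTG2 had 0 counts in each library, ACTA1 had at most 8 and ACTA2 at most 11.

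SRF (chromosome 6, 43171269 to 43181506, plus strand), the factor that reads the CArG box, had 145, 158 and 232 CPM in replicates 1, 2 and 3 without Dox. With Dox it had 112, 87.1 and 100.2 CPM, all under the libraries without Dox. The log2 fold change was -0.84 ± 0.16 (SE, adjusted p = 9.909e-04 by edgeR). It stayed between -0.99 and -0.61 when each library was left out in turn, and passed the threshold each time. Replicate 3 without Dox was the highest of its group for both SRF and ACTG1.

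Of 8 genes in the list of SRF and its cofactors, 7 were tested, of which 2 were lower and 1 higher (42.9% called, against 25.5% of all tested genes). Besides SRF, ELK4, a ternary complex factor, had 118 ± 3.97 CPM without Dox and 79.5 ± 10.3 with Dox (SD, n = 3 each), and its log2 fold change was -0.57. SCAI, known as a repressor of MRTF, rose by 0.69 on the log2 scale, and lost its call when replicate 1 or 2 without Dox or replicate 3 with Dox was left out. The MRTF genes themselves did not pass: MKL1 (MRTFA) had a log2 fold change of -0.11 (95% interval -0.69 to 0.46) and MKL2 (MRTFB) had 0.17 (95% interval -0.16 to 0.51). MYOCD, the cofactor of muscle, had 0 counts in each library.

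TAGLN2 (chromosome 1, 159918107 to 159925507, minus strand), an actin-binding calponin-family protein found in many cell types, had 2239, 1944 and 1622 CPM without Dox and 1429, 1309 and 1586 CPM with Dox. The conditions did not overlap, although replicate 3 without Dox and replicate 3 with Dox lay close together. Its log2 fold change was -0.42 ± 0.14 (SE, adjusted p = 0.0355 by edgeR). The call was lost without any 1 of replicates 1 and 2 of either condition, with adjusted p from 0.0741 to 0.183 (same edgeR test). TAGLN (chromosome 11, 117199370 to 117207464, plus strand), its smooth muscle relative, was scarce, with 10, 7 and 15 counts without Dox and 11, 6 and 55 with Dox. Only replicate 3 with Dox stood above the others, at 7.22 CPM against 1.67 to 2.62 in the other 5 libraries. The log2 fold change of 0.73 had a 95% interval of -0.27 to 1.73 and did not pass (adjusted p = 0.286 by edgeR). Without replicate 3 with Dox, TAGLN was too low for the filter and could not be fitted.

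In GENCODE 44 the last 500 bases of TAGLN are covered by PCSK7, a protease gene on the opposite strand, and by an unnamed gene on the same strand, and whether reads were counted by strand is not given in the sources used here. PCSK7 had 57, 40 and 92 counts without Dox and 92, 43 and 219 with Dox, and was also highest in replicate 3 with Dox, so TAGLN counts are uncertain. The log2 ratio of TAGLN to TAGLN2 counts was higher by 0.74 with Dox (exact two-sided permutation test, p = 0.2, adjusted p = 0.2 over 3 pairs), and by 0.19 without replicate 3 with Dox. Of 6 calponin-family genes, 5 were tested and 2 passed, TAGLN2 and CNN1 (40% called, against 25.5% of all tested genes). CNN1, a smooth muscle calponin, rose, from 3, 1 and 5 counts without Dox to 38, 26 and 76 with Dox. In CPM this was 0.66 ± 0.30 (SD, n = 3) against 8.49 ± 1.39 (SD, n = 3). The conditions did not overlap, but 2 of the 3 libraries without Dox held 3 counts or fewer. CNN2 and CNN3 had log2 fold changes of -0.28 and -0.042 and did not pass.

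TPM1 (chromosome 15, 63042620 to 63071915, plus strand) encodes a tropomyosin, which lies in the groove of the filament and governs access of other proteins to it. It had 317, 422 and 351 CPM without Dox and 232, 291 and 259 CPM with Dox, with no overlap. The log2 fold change was -0.48 ± 0.14 (SE, adjusted p = 0.0160 by edgeR). It did not pass when replicate 2 without Dox (-0.37, adjusted p = 0.0944) or replicate 1 with Dox (-0.40, adjusted p = 0.0992, same edgeR test) was left out. TPM2 (chromosome 9, 35681992 to 35690056, minus strand) had 3, 0 and 0 counts without Dox and 1, 9 and 15 with Dox. All libraries without Dox and replicate 1 with Dox were at 3 counts or fewer, the limit of detection used here (0.394 to 0.930 CPM), so no fold is given. The log2 ratio of TPM1 to TPM2, with 0.5 added to each count, differed by -2.86 (exact two-sided permutation test, p = 0.2, adjusted p = 0.2 over 3 pairs) and rests on these few TPM2 reads. In replicates 2 and 3 without Dox, where TPM2 had 0 counts, the ratio depends on the added 0.5, so its size is not a measured fold. Of the remaining tropomyosins, TPM3 fell by 0.50 on the log2 scale and TPM4 had -0.11, which did not pass. Of 4 tropomyosin genes, 3 were tested and 2 passed (66.7% called, against 25.5% of all tested genes). These 3 had means above 100 CPM, and 34.2% of tested genes with a mean of at least 100 CPM passed. Both called tropomyosins lost their call when replicate 2 without Dox was left out, and TPM3 also when replicate 3 with Dox was.

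MYL9 (chromosome 20, 36541497 to 36551447, plus strand), a regulatory light chain through which phosphorylation switches on myosin II, had 35.0, 25.1 and 19.4 CPM without Dox and 45.0, 48.4 and 57.8 CPM with Dox. Every library with Dox was above every library without it. Means were 26.5 ± 7.90 and 50.4 ± 6.62 CPM (SD, n = 3 each), and the log2 fold change was 0.95 ± 0.19 (SE, adjusted p = 0.00147 by edgeR). It passed without each library in turn, with values from 0.74 to 1.19. The lncRNA DLGAP4-AS1 covers the last 500 bases of MYL9 on the opposite strand in GENCODE 44. It had 0 counts in each library without Dox and 3, 1 and 1 with Dox. Without knowledge of the strand setting, MYL9 counts are uncertain too.

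All 11 genes of the nonmuscle myosin II list were tested, and 3 of them passed (27.3%, near the 25.5% of all tested genes). These were the light chains MYL12A, MYL9 and MYL6, which rose. Their number was 2 without replicate 1 of either condition and 6 without replicate 2 with Dox. MYL12A, a regulatory light chain closely related to MYL9, had 316, 275 and 292 CPM without Dox and 618, 619 and 746 CPM with Dox, a log2 fold change of 1.17 ± 0.13 (SE, adjusted p = 3.701e-06 by edgeR). Its near copy MYL12B, with which reads could be shared, had 0.36 and did not pass (adjusted p = 0.228, same edgeR test). MYL6, the essential light chain, rose by 0.45, a call lost without replicate 1 of either condition. The heavy chains MYH9 and MYH10 had -0.11 and -0.38 and did not pass (adjusted p = 0.613 and 0.0604 by edgeR). Neither did MYLK, a kinase of the regulatory light chain, with -0.53 (adjusted p = 0.135 by edgeR).

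FLNA (X chromosome, 154348524 to 154374634, minus strand) encodes filamin A, a large protein that holds actin filaments in a network and anchors it to integrins. It had 111, 109 and 66.2 CPM without Dox and 157, 146 and 237 CPM with Dox. The conditions did not overlap; replicate 3 was the lowest without Dox and the highest with Dox. The log2 fold change was 0.94 ± 0.20 (SE, adjusted p = 0.00181 by edgeR), and 0.68 to 1.06 when each library was left out in turn. FLNC, another filamin, had a log2 fold change of 0.18 and did not pass. In the list of filamins and cross-linkers, 11 of 11 genes were tested, 2 were higher and 1 lower (27.3% called, near the 25.5% of all tested genes). IQGAP1, a scaffold that binds actin, rose by 0.45, and ACTN1, an alpha-actinin with a CArG box in its RefSeq window, had 348, 343 and 330 CPM without Dox and 243, 216 and 250 with Dox (log2 fold change -0.52, SE 0.12). ACTN4, the related alpha-actinin, had 0.15 and did not pass. IQGAP1 lost its call without replicate 1 without Dox.

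VCL (chromosome 10, 73995193 to 74121363, plus strand), which couples adhesion sites to actin, had 118, 115 and 128 CPM without Dox and 116, 131 and 133 CPM with Dox. The libraries were intermingled and varied little within a condition. The log2 fold change was 0.07 ± 0.12 (SE, adjusted p = 0.721 by edgeR), with a 95% interval of -0.19 to 0.33. Talin (TLN1), its partner at the adhesion site, had 0.027 (95% interval -0.27 to 0.32). The focal adhesion list, which includes VCL, TLN1 and ZYX, went both ways: of 19 genes tested, 5 were higher and 4 lower (47.4% called, against 25.5% of all tested genes). Integrin genes ITGB1 and ITGA3 rose by 0.59 and 1.54, and PXN, the adhesion adaptor paxillin, rose by 0.65. ITGB5, another integrin chain, had a log2 fold change of -1.11, FERMT1, which activates integrins, -1.17, and ITGA6 -1.84; ITGA3 and ITGA6 had means of 10.7 CPM or less in both conditions.

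**Figure D4:**
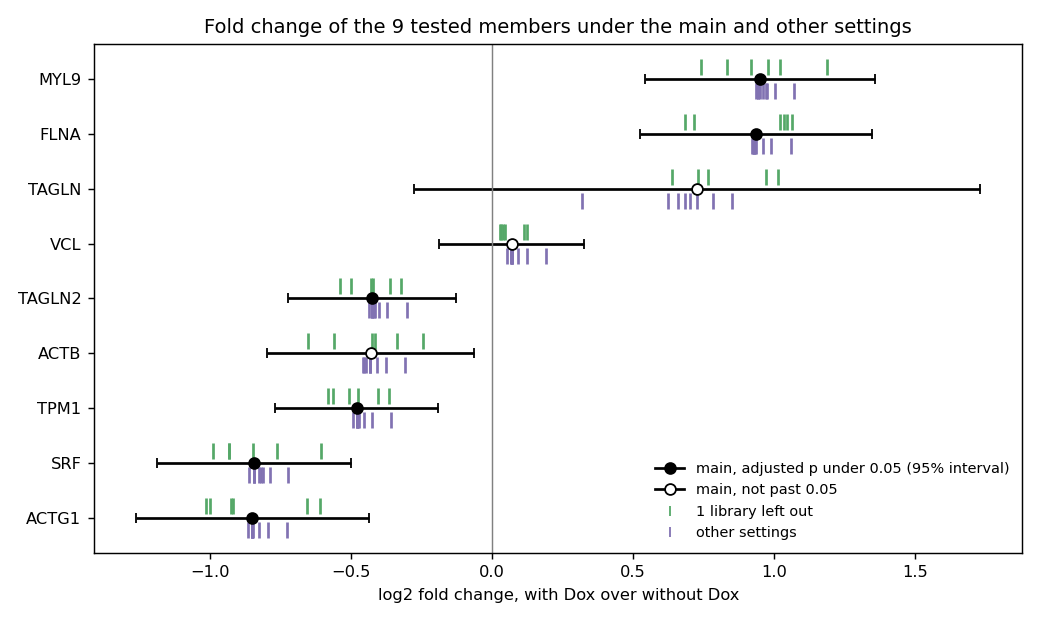
Log2 fold change (with Dox over without Dox) of the 9 tested members, with 95% intervals from the edgeR fit; filled points passed an adjusted p of 0.05. Green marks show fits without 1 library and purple marks the other settings, none of which lies on the other side of 0.

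Libraries within a condition did not move uniformly across these genes. Without Dox, replicate 3 was the highest library for ACTB, ACTG1, SRF, TAGLN and VCL and the lowest for TAGLN2, MYL9 and FLNA. With Dox, replicate 3 was the highest for 6 of the 10 members, among them MYL9 and FLNA, and replicate 2 was the lowest for ACTB, ACTG1, SRF, TAGLN, TAGLN2 and FLNA. Replicate 3 was the most deeply sequenced of both conditions, at 5988151 and 7271771 counts; the part of depth was not tested.

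Genes known as SRF targets outside the 10 members also went both ways. Of 21 other cytoskeletal targets, 17 were tested, of which 3 were higher and 5 lower (47.1% called, against 25.5% of all tested genes), with a median log2 fold change of -0.11. CYR61 (CCN1), a secreted matrix protein, had 18.8, 8.37 and 20.4 CPM without Dox and 65.2, 43.4 and 85.5 with Dox, a log2 fold change whose 95% interval was 1.45 to 2.55. CTGF (CCN2), of the same family, had 84.6, 65.7 and 103 CPM without Dox and 45.2, 31.7 and 66.9 with Dox, with a log2 fold change of -0.80 (SE 0.21). The libraries of CYR61 separated, whereas those of CTGF overlapped by the value of replicate 3 with Dox. CTGF lost its call without replicate 3 without Dox or replicate 1 with Dox. ZYX (zyxin) rose by 0.59, while PDLIM5, a LIM-domain protein of the actin cytoskeleton, had a log2 fold change of -0.47. ZYX lost its call when replicate 1 without Dox or replicate 3 with Dox was left out. Of 11 immediate early targets, 8 were tested, 2 higher and 2 lower (50% called, against 25.5% of all tested genes), and their number dropped to 1 when replicate 3 without Dox was left out and to 2 when replicate 1 with Dox was. EGR1, with a CArG box in its RefSeq window, rose by 0.89 (SE 0.17) from 32.1, 32.2 and 41.2 CPM to 66.5, 50.4 and 78.3. NR4A1 had a log2 fold change of -1.34, which lost its call without replicate 3 without Dox. JUNB rose by 0.72 and FOS had -1.23, and both lost their call in 4 of the 6 fits without 1 library.

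Most factors of actin turnover did not pass the test. Of 35 genes of assembly and turnover, 34 were tested, with 3 higher, 4 lower (20.6% called, against 25.5% of all tested genes) and a median log2 fold change of 0.02. TMSB10, a thymosin that binds actin monomers, showed the smallest adjusted p among them and had 1997 ± 122 CPM without Dox and 958 ± 101 with Dox (SD, n = 3 each), and its log2 fold change was -1.06. VASP and DIAPH3, which extend filaments, had -0.48 and -0.49, whereas WASF1, which activates branching, and DIAPH2 rose by 0.71 and 0.61. GSN, a severing protein, rose by 0.78. Single libraries decided some of these calls, which were lost for GSN in 3, for DIAPH3 in 4 and for VASP and DIAPH2 in 1 of the 6 fits without 1 library. The count for this list was 3 to 7 across those fits, with the smallest number without replicate 1 without Dox. CFL1 (cofilin) and PFN1 (profilin) had -0.34 and -0.13 and did not pass.

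**Figure D5:**
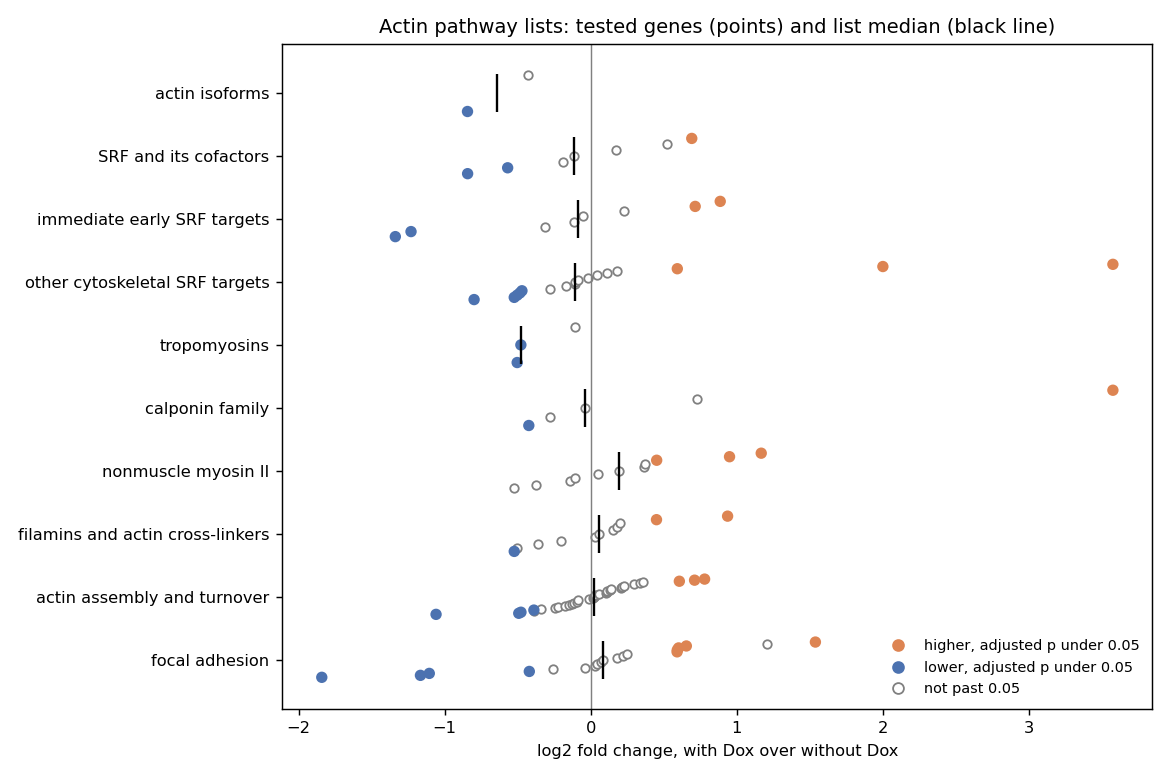
Log2 fold change of each tested gene (points) in 10 lists of actin pathway genes, with colour for an adjusted p under 0.05 and a black line at the list median; height within a list only spreads the points, and a gene can stand in several lists. Called genes lie on both sides of 0 in most lists. The 3 called genes of the myosin II list are higher with Dox (27.3% called, against 25.5% of all tested genes). The 2 called tropomyosins are lower (66.7% called, against 34.2% of tested genes with a mean of at least 100 CPM). Both lost their call when replicate 2 without Dox was left out.

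Over all 10 lists together, 108 of 122 genes were tested and 38 passed, 18 as higher and 20 as lower. This is 35.2% of them, against 25.5% of all tested genes. Their median log2 fold change was 0.02. Of these 38 genes, 20 passed in each fit without 1 library. Across those fits, 26 to 39 genes of all 10 lists passed, a number that can include genes outside these 38. The lists include the members and, like them, were chosen with earlier results of these data known. Among all tested genes with a mean of at least 100 CPM over the conditions, 34.2% passed. Of 14 genes in common use as references for expression, all tested, GAPDH (-0.58 on the log2 scale) and TFRC (-0.71) passed, both lower with Dox (14.3% called, against 25.5% of all tested genes). ACTB is also in this list, and PPIA had 0.059 (95% interval -0.19 to 0.31). GAPDH lost its call when replicate 2 without Dox or replicate 1 with Dox was left out. The number of these 14 genes that passed was 1 without replicate 1 with Dox and 5 without replicate 3 with Dox.

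The CArG box was also counted across all tested genes. Of 9332 tested genes with a RefSeq window, 143 had an exact CArG box, and 12 of these rose (8.39%) and 25 fell (17.5%) with Dox. Of the 9189 genes without a box, 12.1% rose and 13.9% fell. Together 25.9% of the genes with a box passed, against 26.0% of those without; the difference in direction was not tested. Their median log2 fold changes were -0.07 and 0.02. The share of called genes with a box was thus near the background, and ACTG1, SRF and FLNA are 3 of the 37 called genes that had one. Of other genes named above, ACTN1 and EGR1 had an exact box and passed. CNN2, TPM4 and MYLK also had an exact box and did not pass.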

How the data were processed

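RNA of 22Rv1-ABHD5 cells, without and with Dox, was sequenced from its 3ʹ ends (6 libraries, with a Lexogen kit that is FWD in the labels and REV in the methods). The authors used CASAVA 1.8.2 and FastQC, mapped the reads with STAR to hg38, and deposited unnormalized counts of reads for each symbol; the processing notes also name HTSeq and edgeR. Annotation, strand setting and other versions are not given in the sources used here. A normalized signal for every library was deposited too, brought to nearly equal totals in a way the sources do not give. It served as an alternative, without 27 of 27475 rows whose names differed.

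Summary rows (reads on no gene, ambiguous reads) entered neither tests nor library sizes. Counts were fitted with edgeR 4.0.16 in R 4.3.3 (filterByExpr, TMM, quasi-likelihood test), with Benjamini-Hochberg adjustment over 12233 genes and a threshold of 0.05. CPM use the library sizes of that fit. SE is the log2 fold change divided by the root of F. Genes with at most 3 counts in a library were treated as undetected there, a limit for counting error only, since reads carry no molecular identifiers. Ratios within a library were compared by exact permutation tests. The test was tested on simulated data. Replicates differed beyond sampling noise (chi-square per degree of freedom 4.35 to 12.2). Alternatives were other scalings, filters and tests (DESeq2 1.42.0, edgeR's exact test, limma 3.58.1 on log2(value + 1) of the signal), a 2-fold demand, a block for the replicate number, and fits without 1 library.

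Members and lists were chosen with earlier results of these data known. Named were all members, ABHD5, those of the members' paralogs and pseudogenes that could be tested and, per list and direction, up to 3 called genes with the smallest adjusted p. Other genes, among them those named as not past the threshold and the genes that overlap TAGLN and MYL9, were chosen after their values were seen. Some items are not reported here, and list counts leave them out. Promoters are RefSeq's (GRCh38.p14) and coordinates GENCODE 44 on hg38.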

Additional observations from a re-analysis of the deposited data

How the results depend on the processing

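All log2 fold changes of the 9 tested members kept their sign in each alternative that gave a value, and ACTG1, SRF, MYL9 and FLNA also stayed past an adjusted p of 0.05 by edgeR, DESeq2 or limma in all 15. A demand for a 2-fold change left 0 members and 923 genes. ACTB passed without a filter on low counts (-0.44) and with the replicate block (-0.46), and ran from -0.65 to -0.25 without 1 library. TAGLN2 did not pass with upper-quartile normalization (-0.37), library totals alone (-0.30) or the deposited normalized values (-0.41), and ran from -0.54 to -0.32 without 1 library. TPM1 did not pass with library totals alone (-0.36) and ran from -0.58 to -0.37 without 1 library. The median of all genes moved from 0.02 to 0.14 under library totals, and relative to it TAGLN2 and TPM1 had -0.44 and -0.49, as with TMM. Under upper-quartile normalization it was 0.071, and TAGLN2 had -0.44 relative to it. A change of scaling shifts all genes by nearly the same amount, so values relative to the median could hardly differ and are no separate evidence. The cause of the changed calls was not tested. The number of members called was 4 to 7 without 1 library and 4 to 8 in the other settings, 8 without a filter, where TPM2 was among them on its few counts. Genes called numbered 2181 to 3112 without 1 library and 2797 to 3537 in the settings with no 2-fold demand.

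The labels do not say that same-numbered libraries are pairs, so the numbers were not taken as pairs in the main fit. Deviations of same-numbered libraries from their group means correlated with r of -0.0096, 0.226 and 0.0855. The replicate block called 7 members and 3537 genes, and the SE of ACTB was 0.12 with it, against 0.17 in the main fit. Depth limits TPM2, TAGLN, CNN1 and the muscle actins, for which 3 counts stand for 0.394 to 0.930 CPM. The ratio of TPM1 to TPM2 needs counts and was not run on the deposited normalized values.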
